A study of Arabidopsis thaliana with 4 samples.

Results

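The genes described here are 41 nuclear genes of Arabidopsis thaliana that encode proteins of the photosynthetic light reactions: the light-harvesting chlorophyll proteins LHCA and LHCB, and the nuclear-encoded subunits of photosystem I (PSA) and photosystem II (PSB). They were chosen by locus, and each of the 41 loci was found on exactly 1 probe that named no other locus, among 21500 gene probes on the array. All 41 were bright enough to enter the tests, which covered 18416 genes or gene groups, and 36 had a value on all 4 arrays. By role they comprised 9 genes of the trimeric antenna of photosystem II, 5 of its minor antenna, 5 of the photosystem I antenna, 12 photosystem I subunits, 5 oxygen-evolving complex proteins and 5 other photosystem II subunits.

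Both photosystems sit in the thylakoid membrane of the chloroplast, and each has a core, partly encoded in the chloroplast genome, that is fed by an antenna of nuclear-encoded chlorophyll proteins. LHCII trimers and the monomeric minor antenna proteins deliver excitation to photosystem II, which oxidises water, and the LHCA belt delivers it to photosystem I, which reduces ferredoxin. Inflorescence stems are green, with chloroplasts mainly in the cortex beneath the epidermis, and nuclear photosystem genes are classic targets of light signalling, of plastid signals and of the circadian clock.

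The series compared the lower with the upper flank of inflorescence stems of ecotype Col, grown under constant light, after plants were laid on their side in weak light without direction at 23 °C. The groups were the lower flank at 30 min, the upper flank at 30 min, the lower flank at 10 min and the upper flank at 10 min of gravistimulation. Stems were 4 to 8 cm long, the top 5 mm was discarded, and the following 3 cm was split by hand along its length. Every group was gravistimulated, and no upright stem was among the samples. Each array carried both flanks of 1 time, and there were 2 arrays per time with opposite dye orientation: Cy5 held the lower flank on replicate 1 and the upper flank on replicate 2. The arrays of a time are called biological replicates in the labels, but the labelling protocol describes separate reactions with Cy3 and Cy5 for every cRNA, so it is not settled that the swapped arrays came from other plants and the p-values may reflect technical spread alone. Flanks are bulk tissue, so fewer green cells in a flank and less photosystem mRNA per cell cannot be told apart.

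Many of the probes were near the top of the scanner's range: 21 of the 50 brightest and 24 of the 100 brightest tested features were photosystem or antenna genes. Brightness also depends on the probe, so these ranks do not order the transcripts by abundance. Unprocessed signals reached the scanner's ceiling for 8 of them, LHCB1.1, LHCB1.2, LHCB1.5, LHCB6, LHCA1, PSAF, PSBR and PSBW. Saturation always lay in the Cy5 channel: in the upper flank for 6 genes on replicate 2 at 30 min, in the lower flank for all 8 on replicate 1 at 10 min, and in the upper flank for 1 gene, LHCB1.1, on replicate 2 at 10 min. No photosystem gene was saturated on replicate 1 at 30 min. A saturated channel understates its flank, so the ratios of these 8 genes are given apart from the others where they differ. PSBY (AT1G67740) was flagged as an outlier spot on all 4 arrays and has no value, which left 40 measured genes. LHCB4.1, PSAG, PSAH1 and PSBX lost 1 or 2 arrays to the same flag, and their estimates rest on the arrays that remained.

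The first comparison asked whether the flanks differed at 30 min. Most photosystem genes had slightly less signal in the lower flank: 36 of 40 estimates were below 0, with a median log2 ratio of lower over upper flank of -0.14, against -0.00068 over all 18312 features with a value. With median centring in place of loess the genes' median was -0.079. None of the 40 passed the test at this time (limma, Benjamini-Hochberg adjusted p under 0.05 over all features, lowest adjusted p 0.113), where 0.524% of all features passed in either direction, and 14 of the 40 had an unadjusted p under 0.05. The shift was repeated on both arrays: 29 of the 36 genes with values on both 30 min arrays were below 0 on each, against 24.2% of all features, and 0 were above 0 on both. Of 217 other features in the photosystem genes' middle range of mean signal, measured on both arrays, 30% were below 0 on each.

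The same test with the replicate number as a block, which takes out whatever arrays of the same dye orientation share, called 28 of the 40 photosystem genes lower and 0 higher in the lower flank, where it called 16.5% of all features lower and 17.8% higher. The contrast between replicate numbers had an SD over features of 0.0603 (log2), against 0.0162 for what remained, and dye orientation and any other difference between the replicates cannot be told apart in it. A call with the block rests on that small remainder, 1 contrast among 4 arrays per gene with spread borrowed across features. Neither fit therefore shows how far other plants would vary.

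Within the trimeric antenna, LHCB1.4 (AT2G34430; chr2:14532686-14532745, plus strand, in the positions the array files give, whose genome build the sources used here do not name) had the largest flank difference at 30 min. LHCB1.4 encodes an LHCII protein that forms trimers. Its log2 signal was 13.28 and 12.71 in the lower flank at 30 min, against 13.61 and 13.17 in the upper flank, so each array had the lower flank below the upper. The fitted log2 difference was -0.39 ± 0.07 (SE, 2 arrays), which is 1.31-fold lower (adjusted p 0.113, or 2.14e-05 with the replicate block). LHCB2.2 (AT2G05070), another LHCII gene, had 8.76 and 8.96 in the lower flank at 30 min, against 9.04 and 9.11 in the upper flank, and LHCB2.3 (AT3G27690) had 11.03 and 10.77, against 11.30 and 10.89. The fitted differences were -0.21 ± 0.07 for LHCB2.2 and -0.19 ± 0.06 for LHCB2.3, lower on each of the 2 arrays. All 9 trimer genes had estimates below 0 at 30 min, with a median of -0.17.

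Most photosystem I genes behaved alike at 30 min. All 12 subunit estimates lay between -0.23 and -0.12, with PSAH1 at the lower end from a single array, and 4 of the 5 antenna genes lay below 0. PSAD2 (AT1G03130), a subunit on the stromal side at the ferredoxin docking site, had log2 signals of 12.54 and 12.33 in the lower flank at 30 min, against 12.70 and 12.52 in the upper flank, a difference of -0.17 ± 0.03. LHCA2 (AT3G61470), of the photosystem I antenna belt, had 13.39 and 13.14 in the lower flank, against 13.57 and 13.31 in the upper flank, and its difference was also -0.17 ± 0.03. On each array the lower flank was below the upper for both genes. PSAH1 (AT3G16140), which with PSAL and PSAO forms the side where LHCII binds photosystem I, had a value at 30 min only on replicate 2, 10.82 in the lower flank and 11.05 in the upper. With the replicate block its difference was -0.06 ± 0.03 (adjusted p 0.168). LHCA5 (AT1G45474), a sparse antenna protein that links photosystem I to the NDH complex, had log2 ratios of 0.12 and -0.07 on the 2 arrays, 1 on either side of 0. The ratios of the subunit PSAH2, 0.06 and -0.31, also lay on either side of 0.

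Photosystem II subunits and the minor antenna were more mixed at 30 min. LHCB5 (AT4G10340), a monomeric antenna protein next to the photosystem II core, had log2 signals of 14.50 on both arrays in the lower flank, against 14.68 and 14.69 in the upper flank, a difference of -0.19 ± 0.04. LHCB4.3 (AT2G40100) had ratios of -0.02 and 0.02, on either side of 0. LHCB4.1 (AT5G01530) had 1 usable array, with 14.65 in the lower flank and 14.63 in the upper. The 5 oxygen-evolving complex genes, which shield the manganese cluster where water is split, were between -0.11 and -0.02. PSBO1 (AT5G66570) of that complex had 14.97 and 14.66 in the lower flank, against 14.97 and 14.86 in the upper flank. PSBR (AT1G79040), a small photosystem II subunit, had the highest estimate of the 40, 0.04 ± 0.07, with ratios of 0.16 and -0.08 and a saturated upper-flank channel on replicate 2. PSBX (AT2G06520) had 14.55 in the lower flank and 14.81 in the upper on its single usable 30 min array, an estimate of -0.26 ± 0.12, or -0.10 ± 0.03 with the block.

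**Figure D1:**
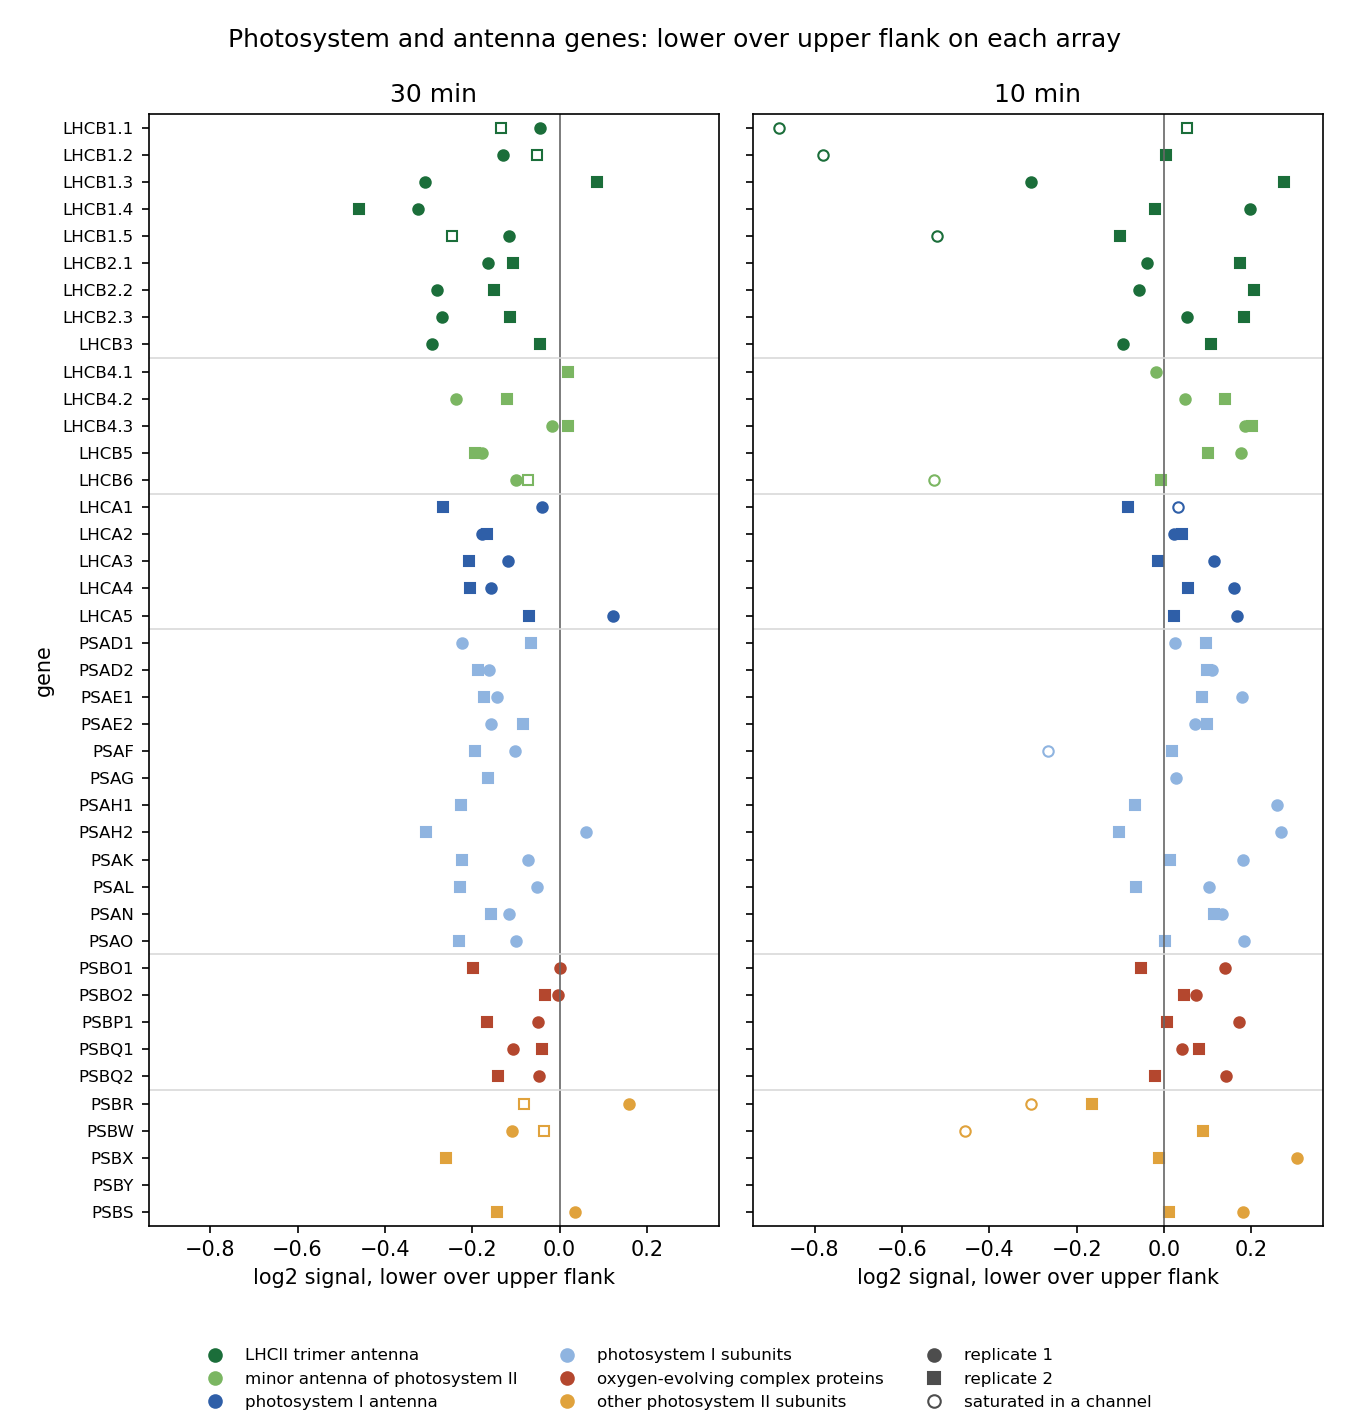
Log2 ratio of lower over upper flank signal (x axis) for each photosystem gene (y axis, coloured by role) on each of the 4 arrays, 30 min in the left panel and 10 min in the right. Circles are replicate 1, squares replicate 2, and open symbols mark spots saturated in a channel. At 30 min 29 of 36 genes lie left of 0 on both arrays, and at 10 min 7 of the 8 open circles of replicate 1 lie left of 0.

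Markers of stem tissues were read beside these flank ratios. At 30 min, 7 of 8 epidermis genes were below 0 with a median log2 ratio of lower over upper flank of -0.20, 7 of 7 xylem and fibre genes with a median of -0.09, and 4 of 4 phloem genes with a median of -0.16. The 4 starch sheath genes had a median of 0.01, with 1 below 0. PP2-A1 (AT4G19840), a phloem protein, passed the test with -0.36 ± 0.04 (adjusted p 0.045), and no other marker of these 4 lists did. Epidermal and vascular markers thus had medians on the same side of 0 as the photosystem genes at 30 min, and their part in the photosystem genes' difference was not tested. At 10 min the phloem genes were above 0 in 4 of 4 (median 0.08), while the medians of epidermis and of xylem and fibre genes were -0.01 each. The change in ratio, 30 minus 10 min, was below 0 for 8 of 8 epidermis, 7 of 7 xylem and fibre and 4 of 4 phloem genes, with medians of -0.17, -0.10 and -0.24.

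At 10 min the direction was the other way for the genes that never saturated. Among 32 such genes, 30 had estimates above 0 with a median log2 ratio of 0.09, whereas the 8 genes with a saturated channel were all below 0 with a median of -0.25. Over all 40 the median was 0.06, against 0.0028 over all 18364 features, and 0 of the 40 passed the test, as did 0% of all features (8 of the 40 had an unadjusted p under 0.05). Of 38 genes with values on both 10 min arrays, 18 were above 0 on each, against 22.4% of all features, and 3 were below 0 on each. Over features, the flank ratios of the 10 min arrays did not correlate with each other (r = -0.057, against 0.436 for the 30 min arrays). Flank ratios at 10 min were thus not repeated between arrays over features as a whole, which limits what the direction at 10 min can show. With the replicate block 20 genes had more and 4 had less signal in the lower flank, where 11.7% of all features were called higher and 11.3% lower. All 4 called lower were among the saturated genes.

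LHCB4.3, LHCB5 and PSBX had the highest 10 min estimates. LHCB4.3 had log2 signals of 11.40 and 11.49 in the lower flank at 10 min, against 11.22 and 11.28 in the upper flank, a difference of 0.19 ± 0.03 (adjusted p 0.553, or 0.000843 with the block). LHCB5 had 14.82 and 14.85, against 14.64 and 14.75, a difference of 0.14 ± 0.04. On both arrays the lower flank was above the upper for these 2 genes. PSBX, a single-helix photosystem II subunit, had 14.83 and 14.67 in the lower flank and 14.53 and 14.69 in the upper flank, so only replicate 1 had the lower flank higher. Among the 12 photosystem I subunits, 11 were above 0. PSAD1 (AT4G02770), the other copy of the ferredoxin docking subunit, had 14.11 and 14.27 in the lower flank and 14.08 and 14.18 in the upper flank.

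The lowest 10 min values belonged to saturated spots. LHCB1.1 (AT1G29920) had log2 signals of 15.38 and 15.85 in the lower flank at 10 min, against 16.26 and 15.80 in the upper flank. Its ratio was -0.88 on replicate 1, where the lower flank was saturated, and 0.05 on replicate 2, where the upper flank was. LHCB1.2 (AT1G29910) and LHCB1.5 (AT2G34420) had ratios of -0.78 and -0.52 on replicate 1, with the lower flank saturated, and of 0.0040 and -0.10 on replicate 2, with neither flank saturated. The replicate 1 values are limited by the scanner's ceiling, so no direction is drawn from them. The probes of LHCB1.1, LHCB1.2 and LHCB1.3 lie next to each other on chromosome 1 (chr1:10474949-10475008, chr1:10472715-10472774 and chr1:10477999-10478058) and those of LHCB1.4 and LHCB1.5 on chromosome 2. These loci are close paralogs, and cross-hybridisation between them was not checked here.

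The design allows a direct test of whether the flank difference at 30 min differed from that at 10 min. The change, 30 minus 10 min, had a median of -0.20 over the 40 genes, against -0.0047 over all 18296 features, and 33 of 40 were below 0. With median centring in place of loess that median was -0.12. Of the 32 never-saturated genes 31 were below 0, with a median of -0.20, while the 8 saturated genes had a median of 0.15. None of the 40 passed (lowest adjusted p 0.146, 17 with an unadjusted p under 0.05), where 0.126% of all features did. With the replicate block 30 genes had a lower and 1 a higher flank ratio at 30 than at 10 min, where 18.9% of all features were called lower and 18.8% higher. LHCB5 had the lowest p, with a change of -0.33 ± 0.05 (adjusted p 0.146, or 0.000188 with the block), and LHCB1.4 the largest change, -0.48 ± 0.09 (0.170, or 6.07e-05 with the block). PSBX had -0.41 ± 0.15, from 1 array at 30 min and 2 at 10 min, and -0.25 ± 0.04 with the block. The 3 highest estimates, 0.33 for LHCB1.1, 0.30 for LHCB1.2 and 0.27 for PSBR, all came from saturated genes.

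The change of sign was seen gene by gene, and 3 of the 4 phloem markers shared it on all arrays. Among the 36 genes measured on all arrays, 15 had the lower flank above the upper on both 10 min arrays and below it on both 30 min arrays. Over all features 9.63% had that pattern. The opposite pattern was seen in 0 of the 36, against 1713 of 17879 features. The 10 min part of the change of sign rests on arrays whose flank ratios did not correlate over features (r = -0.057). Leaving out any array, which leaves 1 array at that time, changed how many flank calls were made without the block. The median ratio then ranged from -0.15 to -0.11 at 30 min and from 0.032 to 0.072 at 10 min. The median of the change ranged from -0.21 to -0.16. Calls at 10 min in these fits were all lower in the lower flank, against the direction of most genes, and calls for the change went both ways. In the fit to all 4 arrays, the 10 min estimates below 0 were those of all 8 genes with a saturated channel and of 2 of the 32 others. On replicate 1 at 10 min, where the lower flank of those 8 was saturated, their median ratio was -0.49, against 0.12 for the never-saturated genes. On replicate 2 at 10 min, where of those 8 only LHCB1.1 was saturated, their median was -0.0018, against 0.051 for the never-saturated genes. The part of saturation in this difference was not tested.

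The next comparison set the level of each gene at 30 min against 10 min, as the mean of both flanks. Photosystem and antenna genes were mostly lower at 30 min: 35 of 40 estimates were below 0, with a median log2 change of -0.23, against 0.04 over all features. The median was 0.18 over other features in the photosystem genes' middle range of mean signal. Of the 40 genes, 3 fell (LHCB1.4, LHCB2.2 and LHCA1) and 0 rose, where 2.66% of all features fell and 1.71% rose. In 14 of the 36 genes measured throughout, both flanks of both 30 min arrays lay below both 10 min arrays, against 16.8% of all features, and in 2 both flanks lay above, against 25.8% of all features.

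LHCB1.4 had the largest fall. Its log2 signals at 30 min were 13.28 and 12.71 in the lower flank and 13.61 and 13.17 in the upper flank, against 14.46 and 14.52 in the lower flank and 14.26 and 14.54 in the upper at 10 min. All 4 signals at 30 min were below all 4 at 10 min. The level was 2.38-fold lower at 30 min, a log2 change of -1.25 ± 0.17 (SE, 2 arrays per time, adjusted p 0.0224). LHCB1.5, whose probe lies beside it on chromosome 2, had -0.12 ± 0.09 and did not pass, with 1 channel saturated at each time.

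LHCB2.2 fell 1.52-fold in level (log2 change -0.61 ± 0.08, adjusted p 0.0224). It had 8.76, 8.96, 9.04 and 9.11 at 30 min over both flanks, against 9.53, 9.69, 9.59 and 9.49 at 10 min, with no overlap. LHCB2.3 had a change of -0.60 ± 0.12 with an adjusted p of 0.0567, while LHCB2.1 (AT2G05100) had -0.25 ± 0.10 (0.180). LHCA1 (AT3G54890), an antenna protein of the photosystem I belt, had 14.73 and 14.43 in the lower flank and 14.77 and 14.70 in the upper at 30 min, against 15.15 and 15.09 in the lower flank and 15.12 and 15.17 in the upper at 10 min. Its level fell 1.39-fold (-0.47 ± 0.09, adjusted p 0.0496), with no overlap between times. That estimate became -0.26 with an adjusted p of 0.193 when all saturated spots were left out before scaling. Without replicate 1 at 10 min, the array with the saturated LHCA1 spot, it stayed at -0.47 (adjusted p 0.185), as it did without replicate 2 at 10 min (0.112).

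Some genes had higher estimates at 30 min. LHCB4.3, a divergent isoform of the minor antenna protein LHCB4, had 12.09 and 11.68 in the lower flank and 12.10 and 11.66 in the upper at 30 min, against 11.40 and 11.49 in the lower flank and 11.22 and 11.28 in the upper at 10 min. All values at 30 min exceeded those at 10 min, and the log2 change in level was 0.53 ± 0.15 (adjusted p 0.103). PSBS (AT1G44575), which senses the acid lumen and triggers thermal dissipation of excess light energy, had 14.31 and 14.05 in the lower flank and 14.27 and 14.20 in the upper at 30 min, against 14.04 and 13.98 in the lower flank and 13.86 and 13.97 in the upper at 10 min, a change of 0.25 ± 0.09 (adjusted p 0.161). The PSBS values of the 2 times did not overlap, by a margin of 14.05 against 14.04. PSAN (AT5G64040), a lumenal photosystem I subunit, had a change of 0.15 ± 0.17 because its 2 arrays at 30 min differed, with 14.42 and 13.87 in the lower flank.

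**Figure D2:**
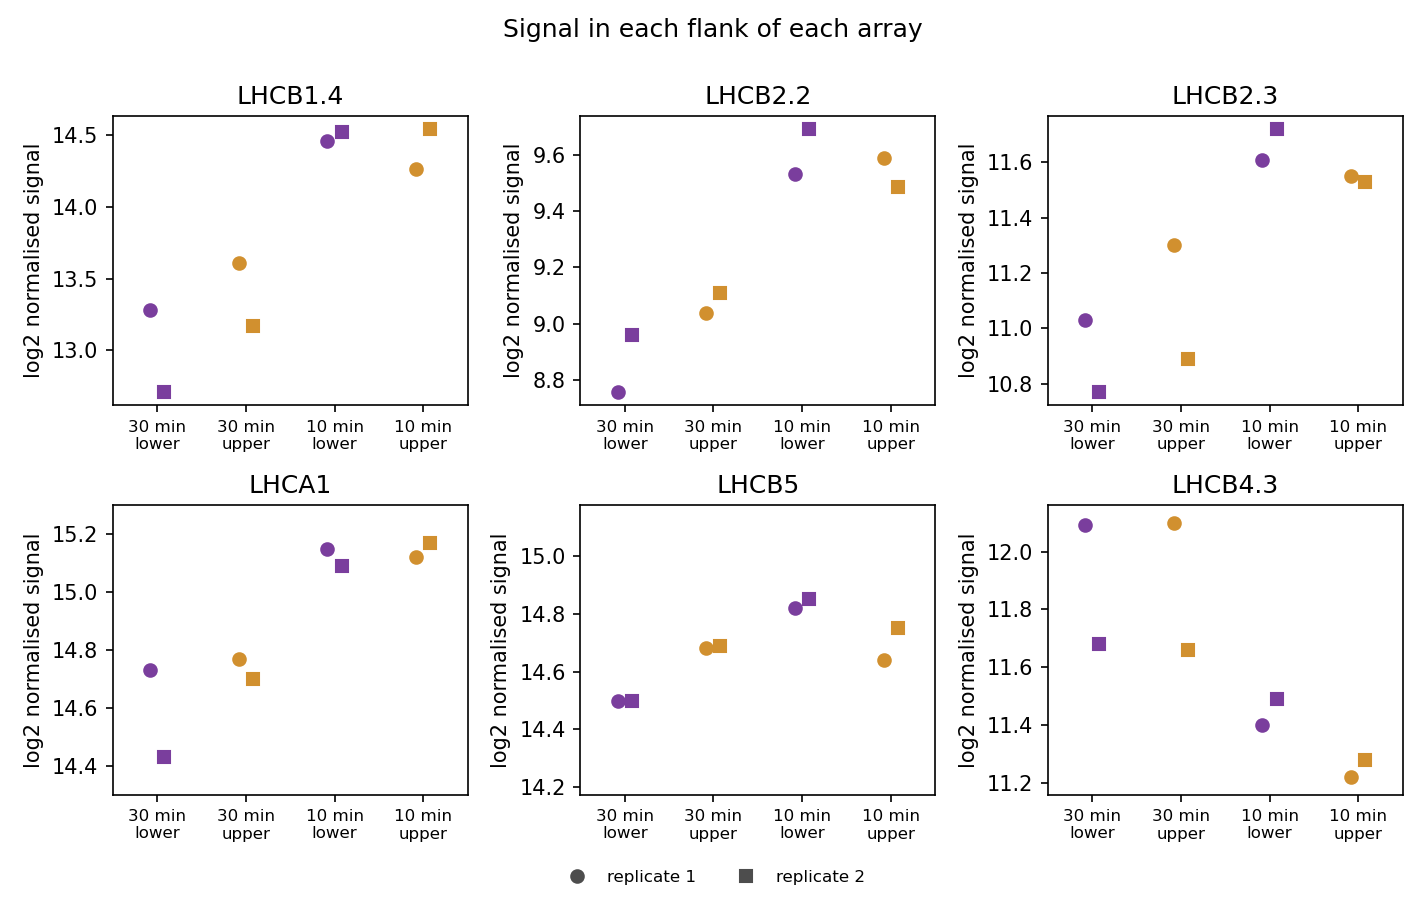
Log2 normalised signal (y axis, a separate scale for each gene) in each flank of each array for 6 genes, with 30 min to the left of 10 min and the lower flank (purple) to the left of the upper (orange). Circles are replicate 1 and squares replicate 2. All 30 min points of LHCB1.4, LHCB2.2, LHCB2.3 and LHCA1 lie below all 10 min points, and those of LHCB4.3 lie above.

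By role, the median log2 change in level was -0.40 for the 9 trimer genes, with 2 called lower, -0.34 for the 5 photosystem I antenna genes, with 1 called lower, and -0.26 for the 12 photosystem I subunits, with 0 called. It was -0.10 for the 5 minor antenna genes, -0.07 for the 5 oxygen-evolving complex genes and 0.09 for the 4 measured other photosystem II subunits, with 0 called in each. No test of the difference between roles was run. The count of 3 depended on the arrays used. Without replicate 1 at 30 min 7 genes fell in level and 0 rose, where 590 of all features fell and 321 rose. Without replicate 2 at 30 min 10 fell and 3 rose, where 1653 of all features fell and 3860 rose. With the replicate block 10 fell and 1, LHCB4.3, rose (adjusted p 0.00226), where 3.95% of all features fell and 5.92% rose. In that fit every photosystem gene measured on all arrays had the same SE, 0.136, so no gene's own spread was used. Same-numbered arrays did not deviate together in average signal (r = -0.293), so the block has little basis for the level.

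Taking each flank on its own, the lower flank had the larger number of calls between 10 and 30 min. In the lower flank 10 of 36 genes fell and 0 rose, where 4.76% of all features fell and 5.17% rose, and the median log2 change was -0.34, against 0.04 over all features. In the upper flank 1 of 36 fell and 1 rose, where 2.96% of all features fell and 3.07% rose, with a median of -0.16, against 0.04. These fits use the channels of the same arrays. The test of the difference between the flanks' changes is the change in flank ratio above, which no gene passed without the block. On simulated data both fits made a larger share of false calls than the adjusted p threshold of 0.05 aims at.

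The 10 genes that fell in the lower flank were the LHCII genes LHCB1.4, LHCB2.2 and LHCB2.3, the minor antenna genes LHCB4.2 and LHCB5, the photosystem I antenna genes LHCA1 and LHCA4, and the photosystem I subunits PSAD2, PSAE1 and PSAO. LHCB1.4 fell by 1.49 ± 0.18 on the log2 scale in the lower flank (2.82-fold, adjusted p 0.0015) and by 1.01 ± 0.18 in the upper (2.02-fold, adjusted p 0.0124). LHCB2.3 fell by 0.76 ± 0.14 in the lower flank (adjusted p 0.0102), with 11.03 and 10.77 at 30 min, against 11.61 and 11.72 at 10 min. Its upper flank had 11.30 and 10.89 at 30 min, against 11.55 and 11.53 at 10 min, a change of -0.45 ± 0.14 (adjusted p 0.0887). The times did not overlap in either flank for these 2 genes. Over all features both flanks at 30 min lay below without overlap in 16.8% and above in 25.8%.

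PSAD2 had 12.54 and 12.33 in the lower flank at 30 min, against 12.92 and 13.03 at 10 min, a log2 change of -0.54 ± 0.10 (adjusted p 0.0112), and -0.26 ± 0.10 in the upper flank (0.161). LHCA4 (AT3G47470), which pairs with LHCA1 in the antenna belt, had 13.82 and 13.74 in the lower flank at 30 min, against 14.27 and 14.39 at 10 min, a change of -0.54 ± 0.10 (0.012), and -0.25 ± 0.10 in the upper flank (0.178). LHCB4.2 (AT3G08940) had 12.58 and 12.34, against 12.96 and 13.12, a change of -0.58 ± 0.12 (0.0216), and -0.31 ± 0.12 in the upper flank (0.187). For these 3 genes the lower flank values did not overlap between times. Of 17879 features with values on all arrays, 4228 had the lower flank at 30 min below that at 10 min without overlap. In 6373 it lay above.

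LHCB5 fell by 0.34 ± 0.09 in the lower flank (adjusted p 0.0406) and had a change of -0.01 ± 0.09 in the upper (0.958). PSAE1 (AT4G28750), a stromal subunit at the ferredoxin docking site, had 13.23 and 13.25 in the lower flank at 30 min, against 13.65 and 13.60 at 10 min, a change of -0.39 ± 0.09 (0.0262), and -0.10 ± 0.09 in the upper flank (0.567). PSAO (AT1G08380), which takes part in state transitions, had 14.05 and 13.90, against 14.43 and 14.42, a change of -0.44 ± 0.12 (0.0438), and -0.19 ± 0.12 in the upper flank (0.390). LHCB4.3 rose by 0.63 ± 0.13 in the upper flank (1.55-fold, adjusted p 0.0272) and had 0.44 ± 0.13 in the lower flank (0.0712).

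Among genes that did not pass, PSBR and PSBW (AT2G30570) had lower-flank changes of 0.19 ± 0.13 and 0.17 ± 0.21, both with saturated channels. In the upper flank LHCB1.1 had -0.66 ± 0.35, PSBS 0.32 ± 0.13 and PSAN 0.28 ± 0.15. The 5 oxygen-evolving complex genes had median changes of -0.13 in the lower flank and -0.03 in the upper, with 0 called in either. The number called in each flank changed when 1 array was left out, which leaves 1 array at that time. The median change then ranged from -0.40 to -0.24 in the lower flank and from -0.19 to -0.11 in the upper. With the replicate block 10 of 36 genes fell and 1 rose in the lower flank, where 4.02% of all features fell and 5.67% rose. PSAE1 and LHCB5 did not pass there (adjusted p 0.0678 and 0.12), while PSAH2 (AT1G52230) and LHCB3 (AT5G54270) fell (0.0132 and 0.0362) and LHCB4.3 rose (0.0399). In the upper flank the block gave 3 genes that fell and 1 that rose, where 2.82% of all features fell and 3.94% rose.

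**Figure D3:**
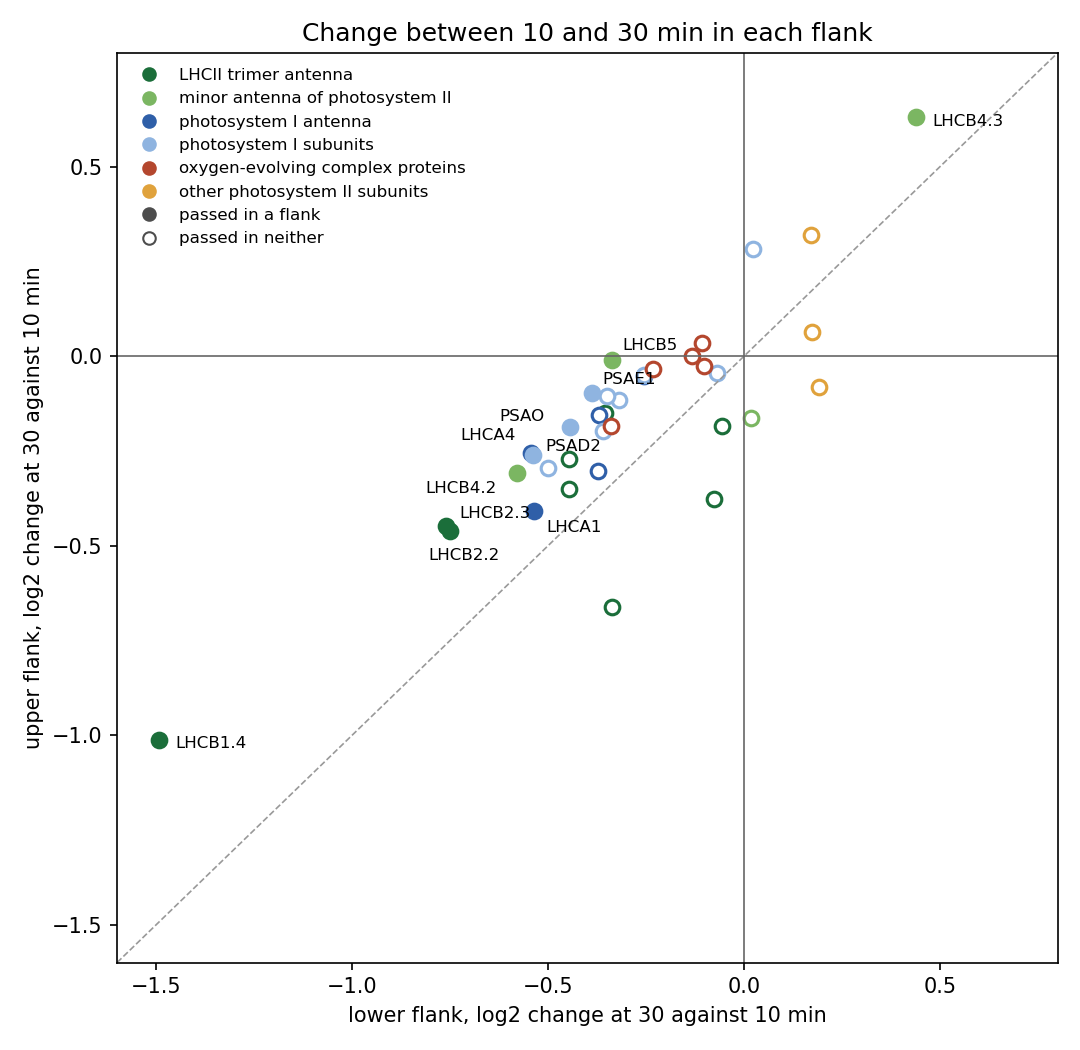
Log2 change at 30 against 10 min in the lower flank (x axis) and the upper flank (y axis) for the 36 genes measured on all arrays, coloured by role. Filled and named points passed the test in at least 1 flank, open points in neither, and the dashed line marks equal change. LHCB1.4 lies lowest on both axes and LHCB4.3 highest, and most points lie above the dashed line.

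Other genes of photosynthesis were read from lists of the same pathways. Nuclear photosystem genes outside the 41 (3 measured of 5 listed) had a median log2 change in level of -0.20, with 0 called. Electron transport and ATP synthase genes (12 of 13) had a median of 0.03 with 0 called, and Calvin cycle genes (16 of 17) a median of 0.04 with 0 lower and 1 higher. The Calvin cycle gene that rose was RBCS1B (AT5G38430), a small subunit of Rubisco (0.77 ± 0.10, adjusted p 0.0191). In the flank ratio at 30 min, the medians were -0.13 for the other photosystem genes, -0.06 for electron transport and -0.04 for the Calvin cycle, with 0 called in each, and at 10 min 0.05, 0.09 and 0.07.

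Chlorophyll synthesis genes (13 of 14 measured) had a median change in level of -0.16, with 3 lower and 0 higher. PORA (AT5G54190) and PORB (AT4G27440), which reduce protochlorophyllide in the light, fell by 1.39 ± 0.07 (adjusted p 0.00163) and 0.53 ± 0.08 (0.0258). CAO (AT1G44446), which makes the chlorophyll b of the antenna, fell by 0.60 ± 0.08 (0.0228). Of 11 genes of antenna import, assembly and photoprotection 2 rose and 0 fell: ELIP1 (AT3G22840) by 0.82 ± 0.11 and ELIP2 (AT4G14690) by 0.81 ± 0.10 (adjusted p 0.0208 and 0.0182), both early light-inducible proteins that bind pigment under light stress. Of 7 measured regulators of photosynthesis genes 0 passed, and GLK1 (AT2G20570) and GLK2 (AT5G44190), activators of antenna genes, had 0.11 ± 0.09 and 0.02 ± 0.12.

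Circadian clock genes changed in level between the times as well: 5 of 9 measured fell and 1 rose, with a median log2 change of -0.51. LUX (AT3G46640), PRR5 (AT5G24470) and PRR7 (AT5G02810) fell by 0.98 ± 0.07, 0.90 ± 0.08 and 0.82 ± 0.08 (adjusted p 0.00476, 0.0064 and 0.00928), and GI (AT1G22770) and TOC1 (AT5G61380) also fell. LHY (AT1G01060), a morning-phased transcription factor, rose by 0.45 ± 0.07 (adjusted p 0.0353). Its flank ratio at 30 min also passed, at 0.34 ± 0.04 in favour of the lower flank (adjusted p 0.045). The sources used here do not give the time of day at harvest, and the part of the clock genes' change in that of the photosystem genes was not tested.

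**Figure D4:**
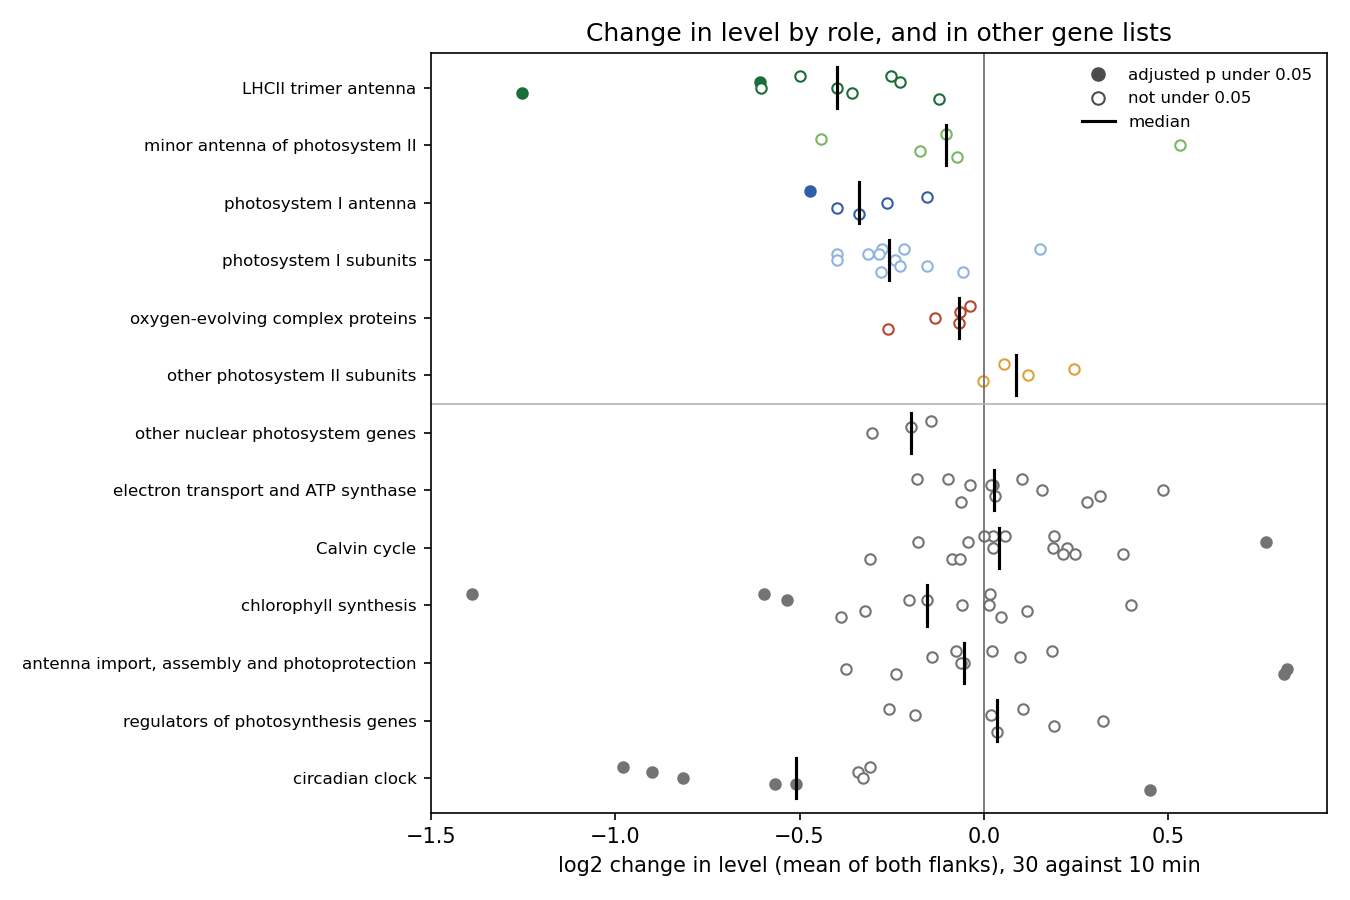
Log2 change in level, 30 against 10 min, of each gene (points) in the 6 roles of the photosystem genes (coloured, above the grey line) and in 7 other lists (grey). Filled points passed the test, open points did not, and black bars are medians. The trimer genes (median -0.40) and clock genes (median -0.51) lie furthest to the left as groups.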

How the data were processed

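The series held 4 two-colour Agilent arrays of inflorescence stem RNA, each with both flanks of 1 time. Per the file headers, spots were quantified by Agilent's program, Feature Extraction 8.1.1.1. From each spot, the deposited mean-signal intensity and the median of its local background were used. The deposited processed intensity, a log10 ratio of Cy5 over Cy3 and flags (other values of 0 or 1 for saturated, outlier and well above background) come from the same program, per the file headers. The authors' series table of log10 ratios was an alternative. No further step, aligner or build is given in the sources used here.

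Background was corrected by normexp (offset 50) and ratios were normalized by loess within arrays (limma 3.58.1, R 4.3.3). Control and outlier spots were left out. Genes were represented by their brightest probe and tested if, in at least 1 flank and time, both arrays had it well above background. The sign was set so that a positive log2 ratio means more signal in the lower flank. Flank differences were fitted over all 4 arrays with a mean per time. Levels used the mean log2 signal of both channels after Aquantile scaling, and changes within a flank used the separate channels of the same arrays (intraspot correlation 0.786). The adjusted p is limma's, Benjamini-Hochberg over all features, called under 0.05, and ± is the SE of the fit. The number of arrays, 2 per time, limits the precision.

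The replicate number marks the dye orientation, per the labels. Same-numbered arrays deviated together in flank ratio (r = 0.866 over features) but not in average signal (r = -0.293), so the fit with the replicate number as a block is given beside the flank results. The photosystem genes and lists were chosen with earlier results of these data known, and all 41 are accounted for. Genes described with values are those called, the 3 highest and lowest estimates of each comparison and the first of each role. Genes of the other lists are named where called, at most 4 a list. LHCA2, LHCB2.1, GLK1, GLK2, GI and LHY fall outside that rule and were chosen after their values were seen. The fits were tested on simulated data with known changes. At a log2 change of 0.5, 63% were recovered for the flank difference at 30 min and 0% for the level, although single genes passed in level with changes of about that size. The simulation drew the spread of each array independently, without the deviations that same-numbered arrays shared in flank ratio. No change under 0.5 was simulated, so the recovery of the smaller flank differences of the photosystem genes is not known. No probe sequence was used here.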

Additional observations from a re-analysis of the deposited data

Results flagged for a closer look

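The direction of the flank difference was not the same at the 2 times for part of the genes. Of the 36 photosystem and antenna genes with a value on every array, 15 had more signal in the lower flank on both 10 min arrays and less on both 30 min arrays. Over all features 9.63% had that pattern. The reverse was seen in 0 of the 36, against 1713 of 17879 features. Over features, the flank ratios of the 10 min arrays did not correlate with each other (r = -0.057), while those of the 30 min arrays did (r = 0.436). Gene by gene, the direct test of the change in flank ratio called 0 without the replicate block. With it 30 were lower and 1, PSBR, higher, where 18.9% of all features were lower and 18.8% higher. PSAD2 had ratios (log2, lower over upper) of -0.16 and -0.19 at 30 min and 0.11 and 0.10 at 10 min, and LHCB5 had -0.18 and -0.19 at 30 min and 0.18 and 0.10 at 10 min. At 30 min 10 of 12 electron transport genes were also below 0, and at 10 min 12 of 12 were above. Of 4 phloem markers 3 had the same pattern.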

How the results depend on the processing

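No estimate of a called photosystem gene changed sign under any alternative. The replicate block stands for dye orientation, and the labels do not pair arrays across times. With it the number called was 28 for the flank difference at 30 min, 24 at 10 min and 31 for the change. It was 11 for the level, 11 for the lower flank and 4 for the upper. Of all features the block called 16.5% lower and 17.8% higher at 30 min, 11.3% and 11.7% at 10 min, and 18.9% and 18.8% for the change. The shares were 3.95% and 5.92% in level, 4.02% and 5.67% in the lower flank, and 2.82% and 3.94% in the upper. Because average signals of same-numbered arrays correlated negatively, a crossed block was added after seeing the data. It called more genes in level than the fit without a block. From the deposited processed signals 1 fell and 0 rose in level, where 390 of all features fell and 161 rose. In the lower flank 3 fell and 0 rose, where 584 of all features fell and 377 rose. In the upper flank 0 were called, where 385 of all features fell and 219 rose. Without the filter on dim features 1 was called in level, and with median scaling 7, with a median change of -0.33. With each time fitted alone there were calls at both times, all lower in the lower flank. At 10 min estimates below 0 were those of the 8 genes with a saturated channel and of 2 of the 32 others. Median centring in place of loess gave medians of -0.079 at 30 min and -0.12 for the change. The counts of genes above or below 0, and so of those that changed sign, were made after loess only.

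Leaving out 1 array at a time gave 1 to 2 calls for the flank difference at 30 min, 0 to 5 at 10 min, 2 to 10 for the change, 3 to 13 for the level, 5 to 8 in the lower flank and 1 to 4 in the upper. The medians ranged from -0.15 to -0.11 at 30 min, from 0.032 to 0.072 at 10 min, from -0.21 to -0.16 for the change, from -0.28 to -0.15 for the level, from -0.40 to -0.24 in the lower flank and from -0.19 to -0.11 in the upper. The causes were not tested. LHCB1.4 and LHCB2.3 passed in the lower flank under all 12 alternatives, and LHCB5 under 2. With 2 arrays per time precision is limited, and saturation limits 8 genes.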
